A study of Sus scrofa domesticus and Sus scrofa with 18 samples.

Results

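A set of 25 protein-coding genes had a lower mean level in pig spleen at each stage than at the stage before it, from 55 days before birth to 2 years of age. The members were chosen by their group means of log2(FPKM + 1), where FPKM counts sequenced fragments relative to transcript length and to the size of the library. A gene entered the set when its mean was lower by at least 0.25 at each of the 4 steps E55d to B0d, B0d to W30d, W30d to A180d and A180d to A2Y, and when its mean over all 18 libraries was below 10. The rule found 25 of 12913 protein-coding genes, which is 0.194%, and all 25 passed the filter on low values (FPKM above 0.1 in at least 3 libraries). The falls selected the genes, so they are given here as a description and without a test.

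RNA was taken from the whole spleen of female Rongchang pigs, a Chinese domestic breed, with 3 animals at each of 5 stages. The stages were E55d (a fetus, 55 days before birth), B0d (newborn), W30d (30 days after weaning), A180d (an age of 180 days) and A2Y (an age of 2 years). For W30d the study's methods count 30 days from weaning and its abstract counts them from birth, so the age at W30d is uncertain. A sixth group, WB, held 3 female Wild Boars that were 2 years old and came from another place, so breed, place and rearing cannot be told apart. No animal was treated or genetically altered. Strand-specific libraries were sequenced, 1 per animal.

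The spleen filters blood, recycles the iron of old red cells and houses B and T lymphocytes. In fetal life it also makes blood cells, and in the pig, as in other mammals, the bone marrow later takes over most of this work. A maturing red cell fills with hemoglobin, builds heme for it in a chain of enzymes, and sets proteins such as band 3 and the Rh proteins into its membrane, before it ejects its nucleus and degrades much of what is left. In RNA from a whole organ, fewer cells of a type and less RNA per cell cannot be told apart.

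Markers of the labelled tissue were present. The summed level of 7 B cell markers was between 3.88 and 4.15 at E55d and between 7.20 and 7.63 at A2Y, and that of 12 T and NK cell markers was between 2.98 and 3.14 at E55d and between 7.67 and 8.50 at A2Y. Markers of macrophages, 8 genes, summed to between 7.60 and 7.73 at E55d and to between 11.02 and 11.19 at A2Y. A list of pancreas, liver, muscle and smooth muscle genes had 5 measured. Of these, the smooth muscle genes MYH11 and ACTG2 had means of 0.99 and 1.18 at E55d and of 6.53 and 6.69 at A2Y. The liver gene ALB had means of 0.83 and 1.44. Whether the RNA of these genes came from the spleen itself or from other tissue was not tested. One gene took from 16.0 to 53.6% of the FPKM of protein-coding genes in a library, and the library medians lay between 2.21 and 2.66. The files hold no read counts, so the depth behind a single value is unknown.

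A single library decided much of the set. W30d replicate 2 was the lowest of the 3 W30d libraries for 21 of the 25 genes, against 34.9% of all protein-coding genes. The rule asks for W30d means below B0d means and so favours genes with a low W30d library. Nothing is read from this count. When W30d replicate 2 was left out, only 5 genes of the table met the rule, and 4 of them, KHSRP, KRT8, NDN and PCBP2, were among the 25. The other was ENSSSCG00000016548. When each of the other 14 domestic libraries was left out in turn, from 18 to 33 genes met the rule, and from 15 to 25 of them were in the set. Of KHSRP, KRT8, NDN and PCBP2, only KHSRP met the rule in each of these cases. KRT8 was lost without B0d replicate 3, A180d replicate 1 or A2Y replicate 2. NDN was lost without W30d replicate 1, A180d replicate 2 or A2Y replicate 2, and PCBP2 without B0d replicate 3 or A2Y replicate 3. Whether the label of W30d replicate 2 is right was not tested, and without it the W30d means and most of the set are different. Values with and without it are therefore given for each step that includes W30d. These genes, and the groups by function other than the gene lists, were singled out after their values were seen.

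**Figure D1:**
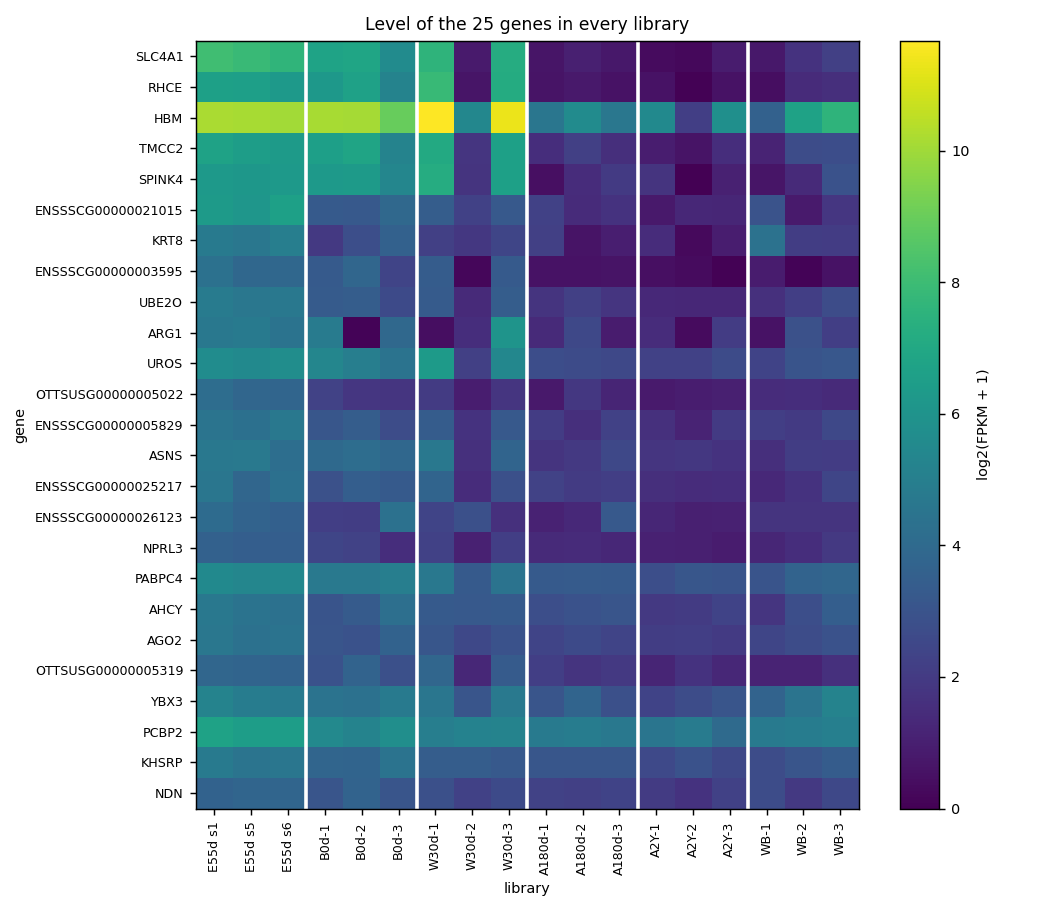
Level of each of the 25 genes (one line per gene) in each of the 18 libraries, as log2(FPKM + 1) by colour, with white lines between groups. The columns of E55d are brighter than those of A180d and A2Y, and W30d-2 is dark beside W30d-1 and W30d-3 for most genes near the top, such as SLC4A1 with 0.86 beside 7.57 and 7.21.

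The set began high and ended low. Over E55d, B0d, W30d, A180d and A2Y in turn, the median of the 25 group means was 4.64, 3.49, 2.98, 1.95 and 1.41, while the median over all genes lay between 2.26 and 2.48 at each of these stages. At E55d the 25 genes stood between percentile 79.8 of all genes and the top, with a median percentile of 92.3. At A2Y the median percentile was 25.6. The difference from E55d to A2Y ran from -7.36 for SLC4A1 to -1.77 for NDN.

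The steps were unequal. For the 4 steps in turn, the median over the 25 genes was -0.91, -0.52, -0.88 and -0.37, and that of all genes was 0.13, 0.03, 0.00 and 0.07. The largest of the 4 falls came at E55d to B0d for 13 genes, at W30d to A180d for 11 and at B0d to W30d for 1, NDN. It came at A180d to A2Y for 0 genes.

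The libraries of neighbouring stages overlapped for many of the genes. All 3 libraries of the later stage were below all 3 of the earlier stage for 17 of the 25 genes at the first step, for 4 at the second, for 3 at the third and for 11 at the last. The same held for 18.9, 14.4, 24.2 and 13.3% of all genes at these steps. The rule used these differences, and nothing is read from the counts. KHSRP was the only one of the 25 without overlap at all 4 steps, as were 3 of 12913 genes in the table (0.0232%).

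A few of the genes sat close to the limit of the rule. The smallest step of RHCE was a fall by 0.251, from A180d to A2Y, that of NPRL3 a fall by 0.254, from B0d to W30d, and that of SPINK4 a fall by 0.262, from E55d to B0d. UROS and AHCY followed with 0.264 and 0.267. Just outside were ENSSSCG00000013958 with 0.237, ENSSSCG00000025414 with 0.232 and ENSSSCG00000016548 with 0.231.

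The members of the set that build the red cell membrane had the largest falls. SLC4A1 (ENSSSCG00000017358) encodes band 3, the anion exchanger of the red cell. Its levels were 8.07, 7.90 and 7.63 at E55d, 6.75, 6.84 and 5.64 at B0d, 7.57, 0.86 and 7.21 at W30d, 0.67, 1.01 and 0.73 at A180d and 0.36, 0.25 and 0.91 at A2Y. The 6 libraries of the youngest 2 stages and W30d replicates 1 and 3 were all above 5, and the others, W30d replicate 2 among them, were at or below 1.01. The mean FPKM was 234 at E55d and 0.450 at A2Y. With all libraries the W30d mean was 5.21 ± 3.77 (SD, n = 3), below the B0d mean of 6.41 ± 0.67 (SD, n = 3), and without W30d replicate 2 it was 7.39, which is higher than at B0d by 0.98.

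RHCE (ENSSSCG00000026791), a Rh blood group protein of the same membrane, had levels of 6.62, 6.58 and 6.27 at E55d, 6.24, 6.68 and 5.20 at B0d, 7.86, 0.64 and 7.19 at W30d, 0.60, 0.78 and 0.55 at A180d and 0.55, 0.05 and 0.58 at A2Y. The E55d and B0d libraries overlapped, and so did those of A180d and A2Y. The step from B0d to W30d was -0.81 with all libraries and 1.49 without W30d replicate 2. Rh and globin genes have close copies, and how reads were shared among such copies is not given in the sources used here, so the levels of RHCE and HBM are uncertain in this respect.

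HBM (ENSSSCG00000007977), an alpha-like globin gene, was the most abundant of the set. Its levels were 10.19, 10.16 and 10.03 at E55d, 10.16, 10.10 and 8.97 at B0d, 11.67, 5.39 and 11.35 at W30d, 4.59, 5.62 and 4.63 at A180d and 5.54, 2.16 and 5.80 at A2Y. The highest 2 of these 15 values were W30d replicates 1 and 3, above every fetal library, and the E55d and B0d libraries overlapped. The step from B0d to W30d was -0.27 with all libraries and 1.77 without W30d replicate 2. The step from A180d to A2Y was -0.45, with A2Y replicate 2 as the lowest library and the other 2 A2Y libraries within or above the A180d range.

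UROS (ENSSSCG00000010742), an enzyme of heme synthesis, had levels of 5.69, 5.53 and 5.70 at E55d, 5.34, 4.99 and 4.46 at B0d, 6.35, 2.23 and 5.42 at W30d, 2.76, 2.67 and 2.55 at A180d and 2.26, 2.26 and 2.66 at A2Y. W30d replicate 1 was the highest of these 15 libraries and W30d replicate 2 the lowest. Its step from B0d to W30d was -0.26 with all libraries and 0.95 without W30d replicate 2, and its next step, to A180d, was then -3.22.

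TMCC2 (ENSSSCG00000015287) encodes a membrane protein with coiled coils, and SPINK4 (ENSSSCG00000010997) a Kazal-type inhibitor of serine peptidases. TMCC2 had levels of 6.73, 6.48 and 6.36 at E55d, 6.59, 6.83 and 5.22 at B0d, 7.09, 1.78 and 6.61 at W30d, 1.54, 2.22 and 1.55 at A180d and 0.92, 0.62 and 1.53 at A2Y. SPINK4 had levels of 6.33, 6.19 and 6.26 at E55d, 6.29, 6.34 and 5.36 at B0d, 7.24, 1.77 and 6.63 at W30d and 0.49, 1.47 and 1.98 at A180d, and at A2Y it had 1.74, a listed 0 and 1.07. Both genes were at their highest in W30d replicate 1, and W30d replicate 2 was within their A180d range. Without that library the step from B0d to W30d was 0.64 for TMCC2 and 0.94 for SPINK4.

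UBE2O (ENSSSCG00000029901), a ubiquitin enzyme that acts in the clearing of proteins from maturing red cells, had means over the 5 stages in turn of 4.73 ± 0.12, 3.14 ± 0.43, 2.72 ± 1.16, 1.92 ± 0.25 and 1.31 ± 0.02 (SD, n = 3 each). Its 3 W30d libraries were 3.35, 1.38 and 3.43. Without replicate 2 the W30d mean was 3.39, higher than at B0d by 0.25.

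NPRL3 (ENSSSCG00000007981) encodes a subunit of GATOR1, a complex that restrains mTORC1 signalling, and its introns are known to hold enhancers of the alpha-globin genes in other mammals. Its levels were 3.64, 3.48 and 3.48 at E55d, 2.44, 2.28 and 1.54 at B0d, 2.25, 1.06 and 2.18 at W30d, 1.38, 1.42 and 1.29 at A180d and 1.09, 1.03 and 0.91 at A2Y. The E55d libraries stood above all others, and the A2Y libraries below all others of the domestic stages except W30d replicate 2. In the RefSeq gene table (Sscrofa11.1), which held 18 of the 25 genes by symbol, NPRL3 and HBM lay on chromosome 3 with 2 protein-coding genes between them. KRT8 and PCBP2 lay on chromosome 5 with 17 between them.

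**Figure D2:**
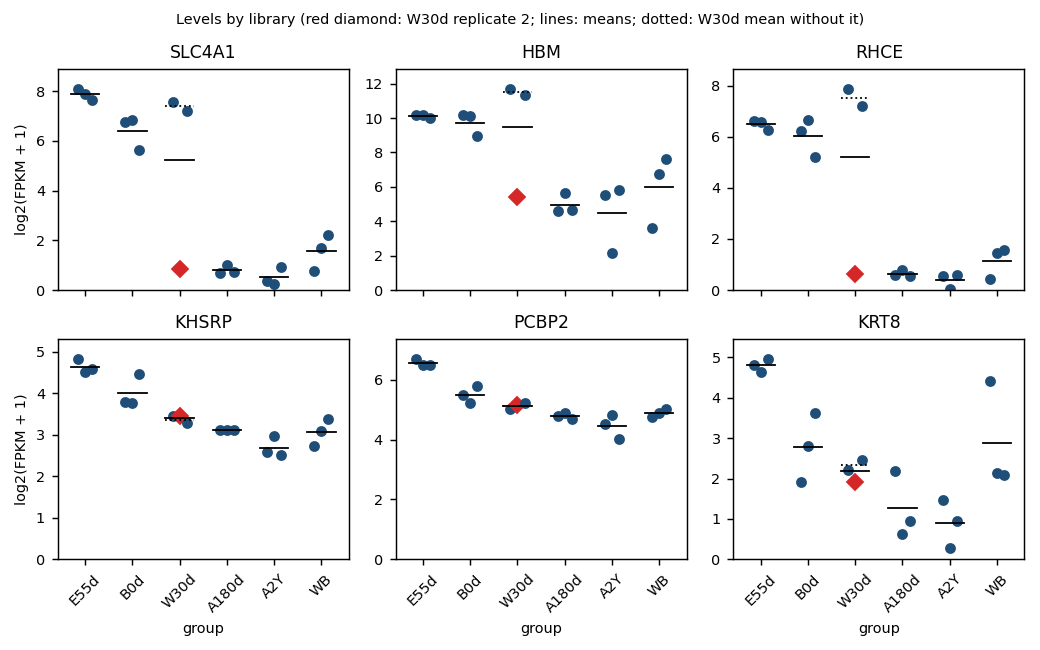
Level, log2(FPKM + 1), of 6 of the genes in each library by group, where points are libraries, the red diamond is W30d replicate 2, solid lines are means of 3 libraries and dotted lines are W30d means without that library. For SLC4A1, HBM and RHCE the dotted W30d line is above the B0d mean (7.39 against 6.41 for SLC4A1), and for KHSRP, PCBP2 and KRT8 it is below the B0d mean (2.33 against 2.78 for KRT8).

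The other genes of red cells and heme were compared over a list of 42 symbols, of which 19 were measured and 3, SLC4A1, HBM and UROS, were in the set. Group differences of the 16 others were tested with limma over all 12913 genes, at a Benjamini-Hochberg adjusted p of at most 0.05. From E55d to B0d, 2 of the 16 were lower and 0 higher (12.6 and 22.3% of all genes), and the 2 were CPOX and FECH, enzymes of heme synthesis. From B0d to W30d, 1 was lower, HBB, and 1 higher, SLC25A38 (7.61 and 8.01% of all genes). The HBB value rests on W30d replicates 1 and 3, where HBB was listed at 0 while HBM was at 11.67 and 11.35, so it is not read as a fall. From W30d to A180d, 13 were lower and 0 higher (15.4 and 12.8%), and from A180d to A2Y, 0 passed in either direction (3.26 and 10.8%).

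The median level of these 16 genes showed where the libraries stood. It was between 5.98 and 6.37 at E55d and between 4.70 and 5.88 at B0d, and it was 6.47, 2.60 and 6.18 in W30d replicates 1, 2 and 3. At A180d it was between 2.64 and 2.71, and at A2Y between 2.34 and 2.81. W30d replicate 2 thus lay within the range of the adult libraries, and it was the lowest W30d library for 15 of the 16 genes.

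Without W30d replicate 2, the test found 6 of the 16 genes lower and 1 higher at B0d than at E55d, and 1 lower and 9 higher at W30d than at B0d. The shares of all genes in this fit are not given here for these steps, so nothing is read from the counts. At A180d 14 were lower than at W30d and 1 higher, and 17.6% of all genes were lower. The calls from W30d to A180d needed the other 2 W30d libraries. Without replicate 1, 2 of the 16 genes were lower (9.59% of all genes), and without replicate 3 again 2 (8.23%). With only these groups in the model 1 was lower (13.0% of all genes). These counts were near or below the shares of all genes. The 4 of the list with the largest differences from E55d to A2Y outside the set were RHAG (-5.97), EPB42 (-4.85), TFRC (-4.45) and CPOX (-4.30), which encode the Rh-associated glycoprotein, protein 4.2 of the membrane skeleton, the transferrin receptor and a heme enzyme. RHAG had levels of 6.68, 6.60 and 6.14 at E55d, 6.06, 6.02 and 4.64 at B0d and 6.84, 0.61 and 6.33 at W30d, and all 6 libraries of A180d and A2Y were at or below 0.79. From W30d to A180d it was lower by limma (adjusted p = 0.0092), as were EPB42 (adjusted p = 0.0093), TFRC (adjusted p = 0.0036) and CPOX (adjusted p = 0.013). With only these groups in the model the 4 had adjusted p between 0.056 and 0.10 (limma), and without W30d replicate 1 or 3 only TFRC passed (adjusted p = 0.022 and 0.027). HBB, the beta-globin gene, was listed at 0 in 1 E55d library too and was between 7.38 and 13.55 in the domestic libraries where it was not at 0.

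Other lists also had W30d replicate 2 apart from the other 2 W30d libraries. It was the lowest of the 3 for 33 of 33 mitosis genes, by a median of -1.29, for 29 of 30 DNA replication genes, by -0.77, and for 3 of 4 granulocyte genes, by -2.12. It was the lowest for 0 of 12 T and NK cell genes, where the median difference was 1.23, for 0 of 7 B cell genes (0.34) and for 1 of 8 macrophage genes (0.55). The part of such differences in the falls of the 25 genes was not tested. At B0d, replicate 3 was the lowest library for 14 of the 25 genes, against 38.3% of all genes, and the median of the 16 red cell and heme genes was 4.70 in it and 5.87 and 5.88 in the other 2. The rule used the B0d values of the 25 genes, so nothing is read from the count of 14.

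Genes of mitosis and DNA replication, 0 of which were in the set, did not go down at every step. Of 33 measured mitosis genes, limma called 21 lower at the first step (12.6% of all genes) and 4 higher at the second (8.01%). It called 31 lower at the third (15.4%) and 3 lower at the last (3.26%). At the second step 0 were lower (7.61% of all genes), and the median difference of the 33 was 0.77. Without W30d replicate 2, 30 of the 33 were higher at W30d than at B0d. The share of all genes at this step without that library is not given here. CENPF, a kinetochore protein, had means of 4.96, 4.0, 4.73, 1.79 and 1.94 over the 5 stages, so its last step was upward in the means. The median difference of the 33 from A180d to A2Y was -0.4, so CENPF does not stand for the list at that step. Of 30 measured DNA replication genes, 21 were lower at the first step (12.6% of all genes) and 3 higher at the second (8.01%), or 14 without W30d replicate 2. The 3 were near the share of all genes, and the share for the 14 is not given here. At the third step 20 were lower and 1 higher (15.4 and 12.8%), and at the last 5 were lower (3.26%). MCM2, a subunit of the replicative helicase, had means of 4.90, 3.62, 3.67, 3.31 and 2.13.

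Collagen and other matrix genes form the scaffold of the organ. Of 36 measured, limma called 18 lower and 3 higher at the first step and 13 lower and 0 higher at the second. There were 6 lower and 1 higher at the third and 2 lower and 1 higher at the last. Of all genes, 12.6, 7.61, 15.4 and 3.26% were lower at the 4 steps, and 22.3, 8.01, 12.8 and 10.8% higher. The counts at the third and last steps were near or below these shares. Without W30d replicate 2, 15 were lower from B0d to W30d, and the share of all genes in that fit is not given here. None of the 36 was in the set. ELN, elastin, had means of 4.94, 4.78, 4.13, 2.57 and 1.68, and its smallest fall was the first. Of 8 measured genes of fetal growth, 5 were lower from E55d to B0d (12.6% of all genes). From A180d to A2Y 0 passed (3.26% of all genes lower and 10.8% higher).

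**Figure D3:**
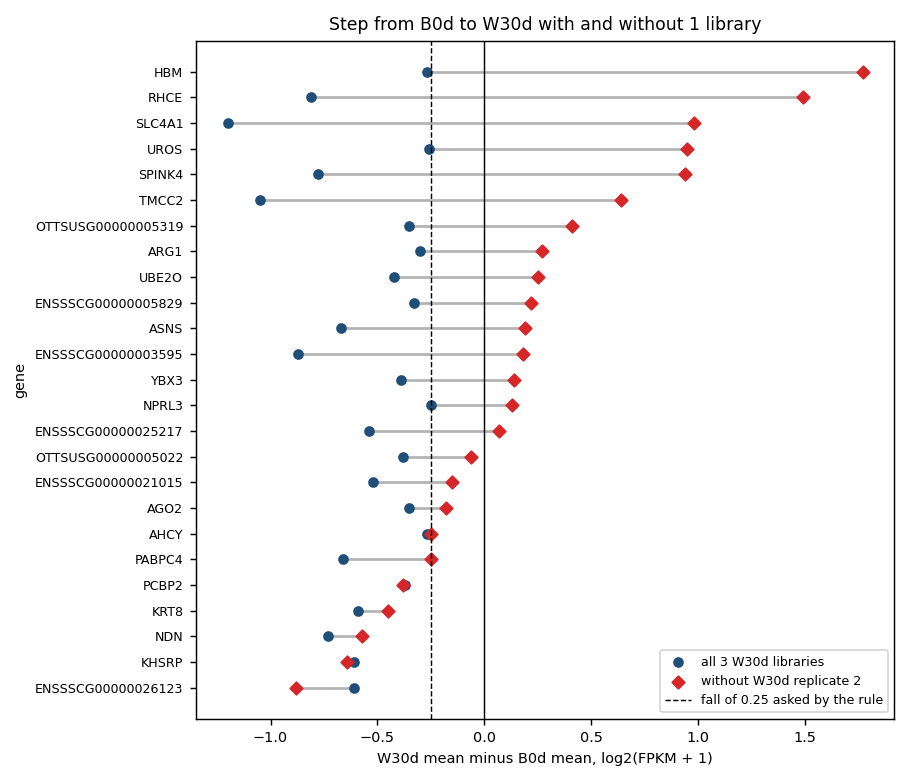
Step from B0d to W30d for each of the 25 genes, as the W30d mean minus the B0d mean in log2(FPKM + 1), with all 3 W30d libraries (blue circles) and without W30d replicate 2 (red diamonds). Without that library 15 genes lie right of 0, HBM farthest at 1.77, and 5 genes remain at or beyond the fall of 0.25 that the rule asks for (dashed line).

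Without W30d replicate 2, 15 of the 25 genes had a higher mean at W30d than at B0d, and 5 were still lower by at least 0.25. These 5 were ENSSSCG00000026123, KHSRP, NDN, KRT8 and PCBP2. ENSSSCG00000026123 left the set all the same, since its step from W30d to A180d was then -0.10.

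KHSRP, PCBP2, PABPC4, YBX3 and AGO2 encode proteins that bind RNA. KHSRP binds AU-rich elements and takes part in the decay of messenger RNA and the processing of microRNA precursors, and PCBP2 binds poly(C) stretches. The levels of KHSRP (ENSSSCG00000013538) were 4.83, 4.50 and 4.59 at E55d, 3.79, 3.76 and 4.45 at B0d, 3.44, 3.46 and 3.28 at W30d, 3.11, 3.10 and 3.10 at A180d and 2.59, 2.96 and 2.52 at A2Y. Every library of a stage was below every library of the stage before, and W30d replicate 2 was the highest of its group. The 4 steps of KHSRP were -0.64, -0.61, -0.29 and -0.41.

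PCBP2 (ENSSSCG00000000274) had levels of 6.71, 6.50 and 6.51 at E55d, 5.49, 5.24 and 5.78 at B0d, 5.01, 5.16 and 5.23 at W30d, 4.80, 4.89 and 4.68 at A180d and 4.54, 4.84 and 4.03 at A2Y. Only its A180d and A2Y libraries overlapped. Its steps were -1.07, -0.37, -0.34 and -0.32, and the second was -0.38 without W30d replicate 2. At A2Y it was still at a mean FPKM of 21.8, against 94.5 at E55d.

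PABPC4 (ENSSSCG00000003660), a cytoplasmic poly(A)-binding protein, had means over the 5 stages in turn of 5.43 ± 0.09, 4.80 ± 0.16, 4.13 ± 0.73, 3.32 ± 0.02 and 2.98 ± 0.14 (SD, n = 3 each). Its W30d libraries were 4.66, 3.30 and 4.43, so replicate 2 was at the level of A180d. YBX3 (ENSSSCG00000000633), a Y-box protein of RNA storage and translational control, had levels of 5.20, 4.89 and 4.81 at E55d, 4.43, 4.37 and 4.77 at B0d, 4.60, 3.08 and 4.73 at W30d, 3.07, 3.78 and 2.85 at A180d and 2.35, 2.71 and 3.07 at A2Y. W30d replicates 1 and 3 were within the B0d range, and the step from B0d to W30d was -0.39 with and 0.14 without replicate 2.

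AGO2 (ENSSSCG00000005935), the Argonaute protein that carries microRNAs and can cut their targets, is also known for making miR-451 in red cell precursors. It had levels of 4.64, 4.34 and 4.43 at E55d, 3.09, 2.94 and 3.65 at B0d, 3.13, 2.54 and 2.96 at W30d, 2.38, 2.61 and 2.40 at A180d and 2.14, 2.18 and 1.98 at A2Y. Every E55d library was above every later one, and every A2Y library was below every other of the domestic stages. Its step from B0d to W30d was -0.35 with all libraries and -0.18 without W30d replicate 2.

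Enzymes of amino acid metabolism made up a further group. AHCY (ENSSSCG00000007278), which splits S-adenosylhomocysteine after methyl transfer, had levels of 4.68, 4.46 and 4.37 at E55d, 3.03, 3.35 and 4.28 at B0d, 3.30, 3.25 and 3.31 at W30d, 2.80, 2.95 and 3.09 at A180d and 1.96, 2.02 and 2.35 at A2Y. Its W30d libraries were within 0.06 of each other, and its B0d libraries were spread from 3.03 to 4.28, so that the step from B0d to W30d rested on B0d replicate 3. That step was -0.27 with all W30d libraries and -0.25 without W30d replicate 2, which no longer reached 0.25 before rounding.

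ASNS (ENSSSCG00000015340), asparagine synthetase, had means over the 5 stages in turn of 4.54 ± 0.26, 4.01 ± 0.13, 3.35 ± 1.55, 2.07 ± 0.40 and 1.79 ± 0.09 (SD, n = 3 each), and W30d replicate 2, at 1.63, was below the mean of the other 2 by 2.57. ARG1 (ENSSSCG00000004195), the arginase of the urea cycle, was scattered among the libraries of B0d and W30d. Its levels were 4.69, 4.78 and 4.44 at E55d, 4.87, 0.12 and 3.94 at B0d, 0.42, 1.54 and 6.06 at W30d, 1.41, 2.54 and 0.88 at A180d and 1.49, 0.36 and 2.07 at A2Y. The ranges of all neighbouring stages overlapped for ARG1, and its highest domestic library was W30d replicate 3.

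KRT8 (ENSSSCG00000000252), an epithelial keratin, had levels of 4.81, 4.63 and 4.97 at E55d, 1.92, 2.80 and 3.63 at B0d, 2.21, 1.91 and 2.46 at W30d, 2.19, 0.63 and 0.96 at A180d and 1.46, 0.29 and 0.94 at A2Y. The E55d libraries stood apart from all later ones, and the later stages overlapped with their neighbours. The first step of KRT8 was -2.02 and the others -0.59, -0.93 and -0.37.

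NDN (ENSSSCG00000004834), necdin, an imprinted growth regulator, had the smallest difference from E55d to A2Y. Its levels were 3.69, 3.80 and 3.82 at E55d, 3.09, 3.70 and 3.08 at B0d, 2.84, 2.25 and 2.60 at W30d, 2.32, 2.21 and 2.35 at A180d and 2.03, 1.71 and 2.27 at A2Y. All W30d libraries were below all B0d libraries, and the step between them was -0.73 with and -0.57 without W30d replicate 2.

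The other 7 genes had no symbol in the gene table used here. ENSSSCG00000021015 had the largest difference of them from E55d to A2Y (-5.26), with a mean of 6.37 ± 0.27 at E55d and 3.49 ± 0.40 at B0d (SD, n = 3 each), and its first step of -2.87 was the largest first step of the set. ENSSSCG00000003595 (-3.74), OTTSUSG00000005022 (-3.01), ENSSSCG00000005829 (-2.90), ENSSSCG00000025217 (-2.71), ENSSSCG00000026123 (-2.68) and OTTSUSG00000005319 (-2.36) followed. ENSSSCG00000026123 was the only one of the 7 for which W30d replicate 2, at 2.83, was the highest of its group, and its B0d and A180d values each held 1 high library (4.36 and 3.24).

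**Figure D4:**
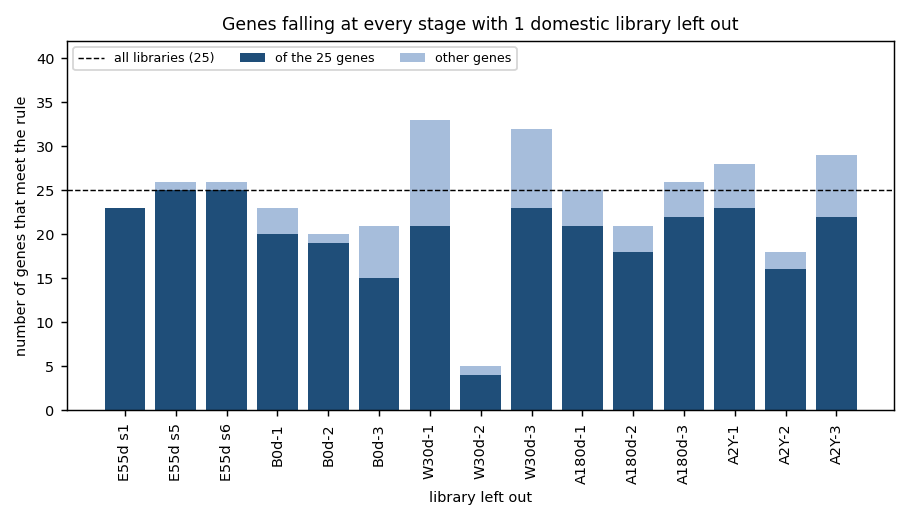
Number of genes that meet the rule when 1 of the 15 domestic libraries is left out, with genes of the set of 25 in dark blue and others in light blue, and the 25 of all libraries as a dashed line. Without W30d-2 the bar is 5 genes, and the other bars lie between 18 and 33.

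Long non-coding RNAs that met the same rule were fewer. Of 15040 lncRNAs, 5 had such falls (0.0332%), against 0.194% of protein-coding genes, and a lncRNA that was not detected was read as FPKM 0. The rule asks for a fall of at least 0.25 at each step, so a lncRNA with a low E55d level cannot meet it. The study reported lower levels for lncRNAs than for protein-coding genes. These shares therefore do not show which kind of gene fell at every stage more often. TU79914 had levels of 4.34, 4.57 and 4.06 at E55d, 2.77, 2.45 and 3.76 at B0d, 0.80, 1.61 and 1.08 at W30d, 0.42, 0.62 and 1.22 at A180d and 0.34, 0.57 and 0.56 at A2Y. W30d replicate 2 was the highest of its group for TU79914. For TU73751, with 3.59, 0.76 and 3.58 at W30d, that library was far below the other 2. TU83744, TU75786 and TU75788 had differences from E55d to A2Y of -3.28, -3.14 and -2.88. Without W30d replicate 2, 4 lncRNAs met the rule, and 2 of them, TU75786 and TU75788, were among the 5.

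The Wild Boar libraries did not enter the falls, although they entered the limit on the mean level. WB was compared with A2Y, the domestic group of the same age. The A2Y means were part of the rule and are the lowest domestic means of every gene of the set, so every difference, call and p-value between A2Y and WB is biased by this choice towards higher values in WB. They are given as a description of these libraries and not as an independent test of the breed. For 24 of the 25 genes the mean was higher in WB than at A2Y, against 51.1% of all genes, and the median difference was 0.57, against 0.01 over all genes. The gene with a lower mean in WB was OTTSUSG00000005319, by -0.09.

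In the fit over all genes, KRT8, YBX3 and AGO2 were higher in WB than at A2Y at a Benjamini-Hochberg adjusted p of at most 0.05 (limma), so 3 of the 25 were higher and 0 lower, against 10.8 and 9.57% of all genes. At an unadjusted p of at most 0.05 there were 5 higher and 0 lower, against 18.1 and 16.7% of all genes. At either limit the count of higher genes was near the share of all genes, and that of lower genes was below it. All 3 WB libraries were above all 3 A2Y libraries for 8 genes, against 17.5% of all genes. The other 5 of these 8 were UBE2O, NPRL3, ENSSSCG00000005829, ENSSSCG00000026123 and OTTSUSG00000005022.

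**Figure D5:**
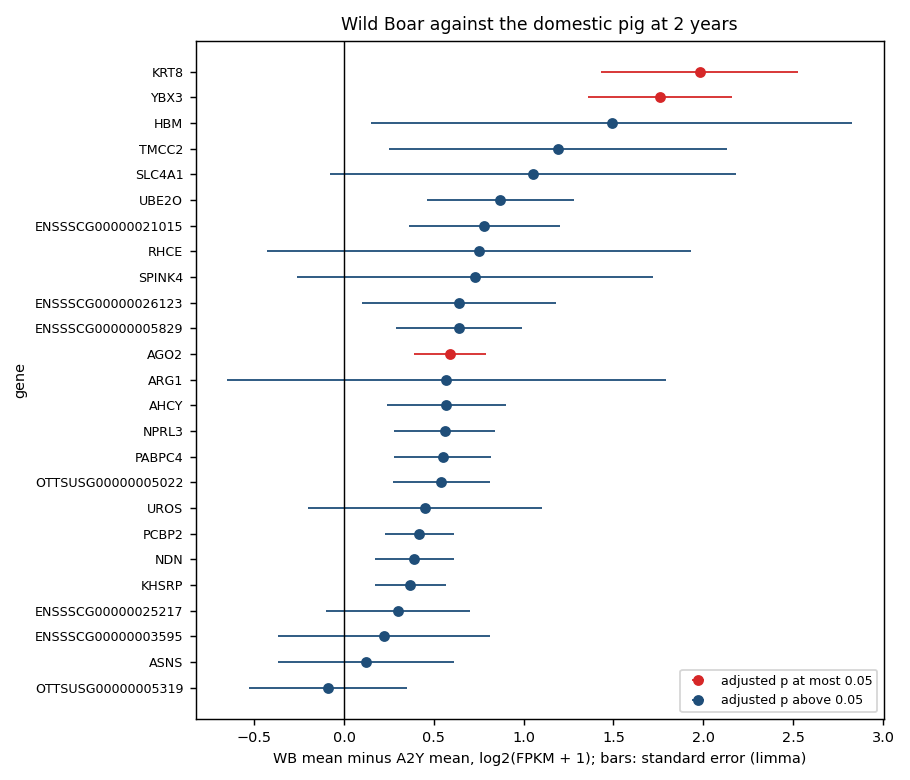
Difference between WB and A2Y, as the WB mean minus the A2Y mean in log2(FPKM + 1) with standard errors from limma, for each of the 25 genes, with 3 libraries per group. Of the 25, 24 lie right of 0, and KRT8, YBX3 and AGO2 (red) have an adjusted p of at most 0.05.

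YBX3 had levels of 3.71, 4.49 and 5.21 in WB and of 2.35, 2.71 and 3.07 at A2Y. The groups did not overlap, and the difference was 1.76 ± 0.40 (SE, limma, adjusted p = 0.0067). With single libraries left out the difference was between 1.39 and 2.14, and the adjusted p stayed at or below 0.05 in each of these fits, all of which share the A2Y values that the rule used. Its WB mean of 4.47 lay between its B0d and W30d means of 4.52 and 4.14, the only gene of the set for which this was so.

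KRT8 had levels of 4.42, 2.13 and 2.09 in WB and of 1.46, 0.29 and 0.94 at A2Y. WB replicate 1 was near the fetal level and the other 2 WB libraries were near the W30d level. The difference was 1.98 ± 0.55 (SE, limma, adjusted p = 0.020). Without WB replicate 1 it was 1.21 (limma, adjusted p = 0.087), and without A2Y replicate 2 it was 1.68 (adjusted p = 0.075), so the call needed both libraries.

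AGO2 had levels of 2.42, 2.72 and 2.93 in WB and of 2.14, 2.18 and 1.98 at A2Y. The groups did not overlap, and the difference was 0.59 ± 0.20 (SE, limma, adjusted p = 0.045). When single libraries were left out, it ranged from 0.47 to 0.73, and it did not pass in 12 of 18 such fits.

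The red cell genes of the set were spread widely in WB. SLC4A1 had 0.77, 1.70 and 2.2, RHCE 0.45, 1.44 and 1.55, and HBM 3.63, 6.72 and 7.61. WB replicate 1 was the lowest of its group for 18 of the 25 genes, against 53.8% of all genes. The differences from A2Y were 1.05 ± 1.13 for SLC4A1 (SE, limma, adjusted p = 0.55), 0.75 ± 1.18 for RHCE (adjusted p = 0.69) and 1.49 ± 1.34 for HBM (adjusted p = 0.46). Of the 16 red cell and heme genes outside the set, 0 were higher and 0 lower in WB than at A2Y (10.8 and 9.57% of all genes). Without W30d replicate 2 in the fit 2 were higher (11.9% of all genes). Among the 25, 6 passed without that library, in a fit that called 11.9% of all genes higher in WB, and the 3 added were SLC4A1, UBE2O and PABPC4.

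The rule sets every A180d mean at least 0.25 above the A2Y mean, so the differences of WB from A180d had to be smaller than those from A2Y. Because the rule used the A180d means too, these differences, calls and p-values are also a description and not an independent test. For 18 of the 25 genes the WB mean was higher, against 61.1% of all genes, with a median difference of 0.21 against 0.09. YBX3 alone had an adjusted p of at most 0.05 (1.24 ± 0.40, SE, limma, adjusted p = 0.043), against 12.5% of all genes higher in WB, and 0 were lower, against 5.14%. At an unadjusted p of at most 0.05 there were 2 higher and 0 lower, against 21.2 and 9.79% of all genes. The call of YBX3 was lost under scaling (limma, adjusted p = 0.056), with only these groups in the model (adjusted p = 0.060) and with the replicate block (adjusted p = 0.069), and with single libraries left out the adjusted p ran from 0.011 to 0.20. KRT8 differed by 1.62 ± 0.55 (adjusted p = 0.054). The WB mean lay between the W30d and A180d means for 16 genes, between the A180d and A2Y means for 6, between the E55d and B0d means for KRT8, between the B0d and W30d means for YBX3 and below the A2Y mean for OTTSUSG00000005319. The 2 comparisons share the WB libraries.

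Other gene lists differed between A2Y and WB in the same fit. Of the 36 matrix genes, 16 were higher in WB and 0 lower, and of the 7 B cell genes, 0 were higher and 7 lower. Of all genes, 10.8% were higher and 9.57% lower. Of the 33 mitosis genes, 4 were lower (18 without W30d replicate 2) and 0 higher, and the 4 were near the share of all genes. The share of all genes lower without that library is not given here, so nothing is read from the 18. The summed level of the 5 pancreas, liver, muscle and smooth muscle genes was between 8.83 and 9.41 in WB and between 8.05 and 8.61 at A2Y. The part of these differences between the lists in those of KRT8, YBX3 and AGO2 was not tested.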

How the data were processed

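Per the labels and the study's methods, the authors mapped strand-specific reads with TopHat (pig genome Sscrofa10.2 in the processing notes), quantified genes with StringTie 1.3.3 and deposited log2 values, log2(FPKM + 1). Cufflinks 2.2.1 is also named in these notes. The tests had been planned for FPKM, and the log2 values were used as deposited. The E55d columns carry numbers that are not those of the labels, so these libraries have no replicate number here. Symbols came from a gene table (8215 of 12913 identifiers matched). Read counts and sequences were not used here.

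Tests used limma 3.58.1 (R 4.3.3), in 1 model of 18 libraries and 6 groups with a mean-variance trend, Benjamini-Hochberg adjustment over 12913 genes and a limit of 0.05. The code was tested on simulated data. The genes, the 13 gene lists (342 symbols, 198 measured) and the rules were chosen with earlier results of these data known. Every gene of the set with a symbol was named, and values per library were given for genes on a list, the 5 with the largest fall, the 5 with the smallest step and those called between A2Y and WB, with others added after their values were seen. Figures used Python 3.11.15 and matplotlib 3.10.9.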

Additional observations from a re-analysis of the deposited data

How the results depend on the processing

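The number of genes in the set depended on the rule and on single libraries. It was 25 as reported, 51 with a pseudocount of 0.1 (24 of the 25 among them), 2 with a fall of at least 0.5 (ENSSSCG00000021015 and ENSSSCG00000025217), 256 with any fall, 10 with group medians (5 of the 25) and 3 when groups had to be without overlap at all 4 steps (1 of the 25). With each library left out in turn it ranged from 5 to 33, the 5 being without W30d replicate 2. A scaling of the libraries to a common median ratio over protein-coding genes moved the median step of all genes from E55d to B0d from 0.13 to 0.01, and the rule then found 36 genes, all 25 among them. The lncRNAs numbered 8 under this scaling, 13 with a pseudocount of 0.1 and from 4 to 9 with single libraries left out.

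The number of the 25 genes called between A2Y and WB was 4 with only these groups in the model (ENSSSCG00000026123, KRT8, OTTSUSG00000005022 and YBX3, without AGO2) and from 2 to 6 with libraries left out, and that between A180d and WB was from 0 to 2. The latter was 0 under the scaling, with only the groups compared in the model and with the replicate block. Shares of all genes in most of these fits are not given here, so nothing is read from these counts. With libraries left out, the difference between WB and A2Y changed sign for ENSSSCG00000025217 (-0.01 to 0.55, the former without WB replicate 3) and OTTSUSG00000005319 (-0.24 to 0.07, the latter without A2Y replicate 2). The next counts are of calls in either direction and stand without shares of all genes, so nothing is read from them. The 19 red cell and heme genes include SLC4A1, HBM and UROS, which the rule chose by these steps. With libraries left out, from 0 to 9 of the 19 were called from E55d to B0d and from 0 to 11 from B0d to W30d. The 11, without W30d replicate 2, were 1 lower and 10 higher. From W30d to A180d there were from 2 to 18 (2 without W30d replicate 1 or 3), and from A180d to A2Y from 0 to 0. Of the 33 mitosis genes these ranges were from 11 to 28, from 0 to 30, from 24 to 32 and from 1 to 8. The 30, without W30d replicate 2, were all higher at W30d than at B0d. With only the 2 groups in the model, the red cell and heme calls were 6, 0 and 1 at the first 3 steps, and the mitosis calls were 0 from B0d to W30d and 6 from A180d to A2Y. Scaling gave 1 red cell and heme call from A180d to A2Y. The cause was not tested.

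Replicate numbers did not pair the libraries, since same-number pairs correlated at -0.297 to 0.143 and 4 of 15 libraries correlated best with their own number. With the replicate block, 2 of the 25 genes were called between A2Y and WB (KRT8 and YBX3), 1 red cell and heme gene and 0 mitosis genes from B0d to W30d, and 1774 of all genes between A2Y and WB, against 2014 in the same 15 libraries without the block. The share of all genes from B0d to W30d in that fit is not given here, so nothing is read from those calls.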
